A study of Homo sapiens with 6 samples.

Results

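The transcripts of 10 genes that switch off signalling through the kinase ERK, or that are switched on by it, were followed in colorectal cancer stem cells after siRNA against PSCA. The genes were taken by symbol from the expression table: the Sprouty genes SPRY1, SPRY2 and SPRY4, the SPRED genes SPRED1 and SPRED2, the phosphatase genes DUSP4, DUSP5 and DUSP6, and the transcription factor genes ETV4 and ETV5. The table lists 58735 genes, and each of the 10 symbols matched 1 of them. All 10 were among the 13796 genes that entered the test, for which a mean level of at least 1 FPKM was required.

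The cells, HCT116SCs, were CD44+CD326+ cells sorted from HCT116, a colorectal carcinoma line, so all libraries derive from 1 line. In the titles of siPSCA 2 and siPSCA 3 another number stands after HCT, but their cell line labels read as in the other libraries. The cells grew as tumour spheres in serum-free medium with B27 supplement, EGF at 20 ng/mL and bFGF at 20 ng/mL. For both groups the spheres were digested to single cells, which were seeded in plates and transfected with liposomes. The NC group (n = 3 libraries) received a negative control siRNA and the siPSCA group (n = 3 libraries) an siRNA against PSCA, the gene of prostate stem cell antigen, and both were harvested 48 h later. Which of the PSCA siRNAs was used is not given, and nothing says whether the libraries of a group came from separate cultures, so p-values measure the spread between these libraries, which may be technical.

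Signalling from EGF and FGF receptors passes through RAS, RAF and MEK to ERK, and ERK in turn induces its own inhibitors. Sprouty proteins act on the pathway near the receptor. SPRED proteins bring the RAS-inactivating protein neurofibromin to the membrane. DUSP4 and DUSP5 are nuclear phosphatases, DUSP6 is a cytoplasmic phosphatase that prefers ERK, and ETV4 and ETV5 are ETS transcription factors of the PEA3 group. Because transcription of these genes follows ERK activity in many cell types, their transcripts are commonly read as a measure of pathway output. The repressor CIC holds several of them down, and ERK signalling relieves that repression.

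The level is given as FPKM, the reads on a gene scaled to the length of its exons and to the size of the library. That length covers the exons of all annotated transcripts of the gene. Comparisons of level between genes rest on it, and which transcripts were expressed was not tested. The libraries held 16145977 to 16884838 reads on genes in NC and 16099716 to 17302219 in siPSCA. A single read on a gene of 1 kb gave an FPKM of 0.0549 to 0.0595. The targeted gene did not tell the libraries apart at this depth: PSCA had 4, 12 and 15 reads in NC and 9, 9 and 7 in siPSCA, and its groups overlapped. Of the sort markers, CD44 had a mean FPKM of 82.6 in NC and 60.7 in siPSCA, and EPCAM, the gene of CD326, 107 and 94.97. CD44 was called lower without overlap (adjusted p = 0.00193 from limma), also with the GC trend removed (adjusted p = 0.00154). EPCAM overlapped between groups and was not called (adjusted p = 0.199). Of 5 colorectal epithelial markers, KRT8 and CDX2 were called higher and CDH1 lower, KRT18 was not called, and VIL1, a brush border gene, was at or near 0. With the trend on GC content and gene length removed, the GC trend described further on, KRT8 was not called (adjusted p = 0.403 from limma). In that fit KRT18 was called lower (adjusted p = 0.0167). Of 5 markers of other cell types, PTPRC and COL1A2 were at or near 0, PECAM1 had mean FPKM of 0.113 and 0.0853 and VWF of 0.0789 and 0.124 in NC and siPSCA, and nearly all of the summed level was COL1A1. That sum was 3.56 to 5.92 FPKM in NC and 6.17 to 6.74 in siPSCA, and its part in the results was not tested. In bulk RNA, fewer cells with a transcript and less of it per cell cannot be told apart.

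The promoter of DUSP6 is shown because DUSP6 had the highest level of the 10 genes and one of the largest falls. Promoter windows of RefSeq on GRCh38.p14, which run from 250 bases before to 50 bases after a transcription start, were found for 6 of the 10 genes: SPRY1, SPRY2, SPRY4, SPRED1, SPRED2 and DUSP6. The DUSP6 stretch below reads 5′ to 3′ on the minus strand at chr12:89352493-89352751 and covers 250 bases before the start and 9 after it. Capitals mark the octamer TCCATTGA, the reverse complement of TCAATGGA, a form of the sequence that CIC binds.
DUSP6: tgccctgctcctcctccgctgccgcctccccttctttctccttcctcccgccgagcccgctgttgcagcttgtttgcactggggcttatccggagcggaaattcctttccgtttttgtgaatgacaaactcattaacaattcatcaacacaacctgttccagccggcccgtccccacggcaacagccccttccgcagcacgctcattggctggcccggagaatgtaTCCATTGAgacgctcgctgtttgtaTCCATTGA

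The octamer occurred at 2 places, 24 bases before the start and at base 2 after it. These letters (TCAATGAA or TCAATGGA, both strands) were added after the DUSP6 window had been read. They were found in 1.22% of all 35116 promoter windows, and 2 or more copies in 8 windows (0.0228%). Among the letters searched first, TGAATGAA or TGAATGGA for CIC (2.63% of all windows), CCGGAAGT for ETS factors (4.14%), TGACGTCA for CREB (1.85%) and ACGTG for hypoxia-inducible factors (21.4%) had no match in the windows of these genes. TGACTCA, the letters of AP-1 (4.95% of all windows), was found 6 bases before a SPRED2 start. A match is a description of the letters and not of a bound site.

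With siPSCA, 7 of the 10 genes were lower at an adjusted p under 0.05: SPRY1, SPRY4, SPRED1, SPRED2, DUSP5, DUSP6 and ETV5. None was higher (0 of 10). Among all tested genes 24.2% were called lower, 26.6% higher and 50.7% either way. The test is the moderated linear model of limma on log2(FPKM + 1), and the p-values were adjusted for the 13796 tests after Benjamini and Hochberg. Without NC 3, whose difference from NC 1 and NC 2 ran with transcript GC content (Spearman's rho -0.561 over the tested genes, which are not independent replicates), 7 of 10 were again called lower. Without siPSCA 1 the number was 4 and without siPSCA 2 it was 3, and it was 6 without NC 1, NC 2 or siPSCA 3. Of all 13796 tested genes, 3333 were called lower with every library kept, 2328 without siPSCA 1 and 2332 without siPSCA 2. This count was 3132, 2763, 3411 and 2712 without NC 1, NC 2, NC 3 and siPSCA 3.

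The libraries of the groups did not overlap, with siPSCA lower, for 8 of the 10 genes, against 30.8% of all tested genes. They did not overlap with siPSCA higher for 0 of 10, against 33.7%. Only SPRY1 and DUSP6 fell by more than 0.5 on the log2 scale with an unadjusted p under 0.05 (2 of 10, against 10.2% of tested genes). The median log2 fold change was -0.23 over the 10 genes and 0.0091 over all tested genes. The plot of levels by library shows how far the 10 genes lie apart in abundance.

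**Figure D1:**
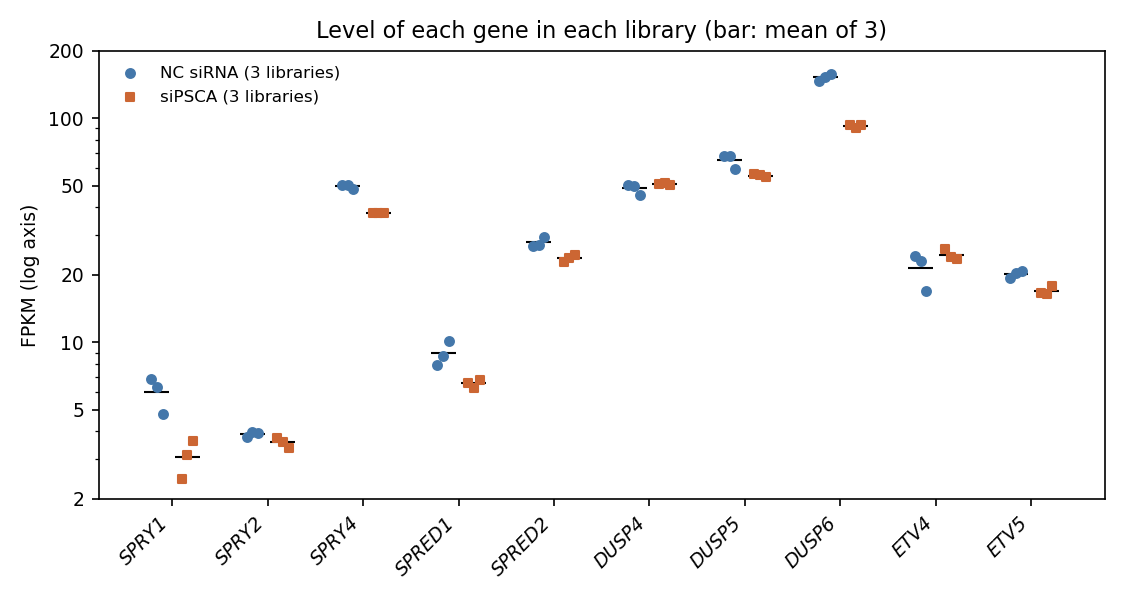
FPKM (log axis) of the 10 genes in each of the 3 NC libraries (circles) and 3 siPSCA libraries (squares), with bars at the means. DUSP6 fell from 152 to 92.0 FPKM and stayed the most abundant, SPRY1 fell from 5.99 to 3.07 FPKM, and the points of DUSP4 and ETV4 overlap between groups.

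Among the Sprouty genes, SPRY4 carried most of the transcript. SPRY4 (ENSG00000187678, chr5:142310427-142326455, minus strand, GRCh38) had an FPKM of 50.2, 50.4 and 48.3 in NC 1, NC 2 and NC 3 and of 37.8 in siPSCA 1, siPSCA 2 and siPSCA 3. Every siPSCA library was below every NC library. The mean fell from 49.6 ± 1.13 to 37.8 ± 0.00425 (SD, n = 3), which is -0.38 as a log2 fold change (SE 0.042, adjusted p = 0.00146 from limma). The 3 siPSCA values of SPRY4 lay closer together (coefficient of variation 0.0112%) than the number of reads alone would give on average (1.51%).

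SPRY1 (ENSG00000164056, chr4:123396795-123403760, plus strand) was far less abundant and varied more. Its FPKM was 6.85, 6.33 and 4.79 with NC siRNA and 2.45, 3.12 and 3.63 with siPSCA. NC 3 was the lowest NC library and siPSCA 3 the highest siPSCA library, and the groups did not overlap. SPRY1 fell from 5.99 ± 1.07 to 3.07 ± 0.593 (SD, n = 3), with a log2 fold change of -0.78 (SE 0.15, adjusted p = 0.00803 from limma). It ranked above 51.5% of tested genes in NC and above 30.6% in siPSCA.

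SPRY2 (ENSG00000136158, chr13:80335976-80340951, minus strand) was not called. It had 3.761, 3.99 and 3.96 FPKM in NC and 3.755, 3.59 and 3.38 in siPSCA. The highest siPSCA library lay just under the lowest NC library. The log2 fold change was -0.10 (95% interval -0.25 to 0.049, adjusted p = 0.216 from limma), so a fall of the size seen in SPRY4 lies outside the interval. The summed FPKM of the 3 genes was 59.5 ± 2.11 in NC and 44.5 ± 0.405 in siPSCA (SD, n = 3), and SPRY4 made up 83.4% and 85.1% of it.

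Of the SPRED genes, SPRED2 was the more abundant. SPRED2 (ENSG00000198369, chr2:65310851-65432637, minus strand) had 27.0, 27.3 and 29.5 FPKM in NC and 22.7, 23.9 and 24.5 in siPSCA. The groups lay apart, with every siPSCA value below every NC value. SPRED2 fell from 27.9 ± 1.33 to 23.7 ± 0.920 (SD, n = 3), which is -0.23 as a log2 fold change (SE 0.056, adjusted p = 0.0177 from limma). The call was lost without siPSCA 1 (adjusted p = 0.0677) and without siPSCA 2 (adjusted p = 0.0596).

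SPRED1 (ENSG00000166068, chr15:38252326-38357249, plus strand) had 7.94, 8.66 and 10.1 FPKM in NC and 6.60, 6.27 and 6.81 in siPSCA. NC 3 was the highest NC library, and again the groups did not overlap. SPRED1 fell from 8.91 ± 1.12 to 6.56 ± 0.271 (SD, n = 3), with a log2 fold change of -0.38 (SE 0.090, adjusted p = 0.0143 from limma). SPRED1 has the lowest GC content and the greatest length of the 10 genes. Its call was lost once the trend on GC content and gene length was removed (log2 fold change -0.057, adjusted p = 0.481 from limma). Removal of either trend alone was not tested. Without siPSCA 2 its adjusted p was 0.0557.

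Of the phosphatases, DUSP6 and DUSP5 were called lower and DUSP4 was not. DUSP6 (ENSG00000139318, chr12:89347232-89353271, minus strand) had 146, 153 and 157 FPKM with NC siRNA and 92.9, 90.1 and 92.9 with siPSCA. The groups were separated by a gap wider than the range of either. Its mean fell from 152 ± 5.47 to 92.0 ± 1.60 (SD, n = 3), to 0.604 of the NC level, with a log2 fold change of -0.72 (SE 0.046, adjusted p = 0.000408 from limma). The call held whichever library was left out, with log2 fold changes of -0.75 to -0.70. DUSP6 ranked above 99.0% of tested genes in NC and above 97.9% in siPSCA.

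DUSP5 (ENSG00000138166, chr10:110497838-110511544, plus strand) had 67.9, 68.1 and 59.1 FPKM in NC and 56.1, 55.6 and 54.6 in siPSCA. NC 3 lay below the other NC libraries and still above all siPSCA libraries. The mean fell from 65.0 ± 5.11 to 55.4 ± 0.772 (SD, n = 3), which is -0.22 as a log2 fold change (SE 0.066, adjusted p = 0.0310 from limma). Of the 7 calls, that of DUSP5 was the one most often lost when 1 library was left out. Leaving out any library but NC 3 ended it, with adjusted p up to 0.0972 from limma, and without NC 3 the adjusted p was 0.000877.

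DUSP4 (ENSG00000120875, chr8:29333064-29350668, minus strand) had 50.5, 49.9 and 45.5 FPKM in NC and 50.7, 51.3 and 50.2 in siPSCA. NC 3 was lowest, and the groups overlapped. The log2 fold change was 0.061 (95% interval -0.071 to 0.19, adjusted p = 0.384 from limma), so the interval leaves out falls of the size measured for DUSP5 and DUSP6. The summed FPKM of the 3 phosphatases was 266 ± 4.81 in NC and 198 ± 1.40 in siPSCA (SD, n = 3), with no overlap between groups and an exact permutation p of 0.1, the smallest that 3 libraries against 3 allow. DUSP6 made up 57.3 ± 2.47% of this sum in NC and 46.4 ± 0.637% in siPSCA, and DUSP4 18.3% and 25.6%.

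Of the PEA3 factors, ETV5 was called lower and ETV4 was not called. ETV5 (ENSG00000244405, chr3:186046308-186110318, minus strand) had 19.4, 20.3 and 20.7 FPKM in NC and 16.6, 16.4 and 17.8 in siPSCA, without overlap. It fell from 20.1 ± 0.674 to 16.9 ± 0.735 (SD, n = 3), with a log2 fold change of -0.24 (SE 0.054, adjusted p = 0.0128 from limma). Its call was lost without siPSCA 1 (adjusted p = 0.0528) and without siPSCA 2 (adjusted p = 0.0575).

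ETV4 (ENSG00000175832, chr17:43527844-43579620, minus strand) had 24.2, 23.1 and 16.9 FPKM in NC and 26.1, 24.1 and 23.5 in siPSCA. NC 3 was by far the lowest library, and the groups overlapped through NC 1 alone. The mean was 21.4 ± 3.91 in NC and 24.5 ± 1.36 in siPSCA (SD, n = 3), which is 0.20 as a log2 fold change (SE 0.13, adjusted p = 0.241 from limma) that was 0.052 without NC 3. The sum of ETV4 and ETV5 was 41.5 ± 3.36 FPKM in NC and 41.5 ± 1.13 in siPSCA (SD, n = 3). By library it was 43.6, 43.3 and 37.6 FPKM in NC and 42.7, 40.5 and 41.2 in siPSCA. NC 3 had the lowest sum, and those of NC 1 and NC 2 lay above every siPSCA library.

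The order of the 10 levels in NC was DUSP6, DUSP5, SPRY4, DUSP4, SPRED2, ETV4, ETV5, SPRED1, SPRY1 and SPRY2. The neighbours SPRY4 and DUSP4, and ETV4 and ETV5, overlapped in range. In siPSCA the order was DUSP6, DUSP5, DUSP4, SPRY4, ETV4, SPRED2, ETV5, SPRED1, SPRY2 and SPRY1, and ETV4 and SPRED2, and SPRY2 and SPRY1, overlapped. Thus DUSP4 and SPRY4 overlapped in NC, whereas DUSP4 was above SPRY4 in every siPSCA library.

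Fold changes across all tested genes rose with the GC content of the transcript. Over the 13792 tested genes with a GC value, Spearman's rho between GC content and log2 fold change was 0.664, and 0.603 without NC 3. Genes are not independent replicates. The 10 genes span this axis from 38.9% in SPRED1 to 60.8% in ETV4. In the plot against GC content, DUSP6, SPRY1, SPRY4, DUSP5 and ETV4 lie below the centre of the genes with the same GC content.

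**Figure D2:**
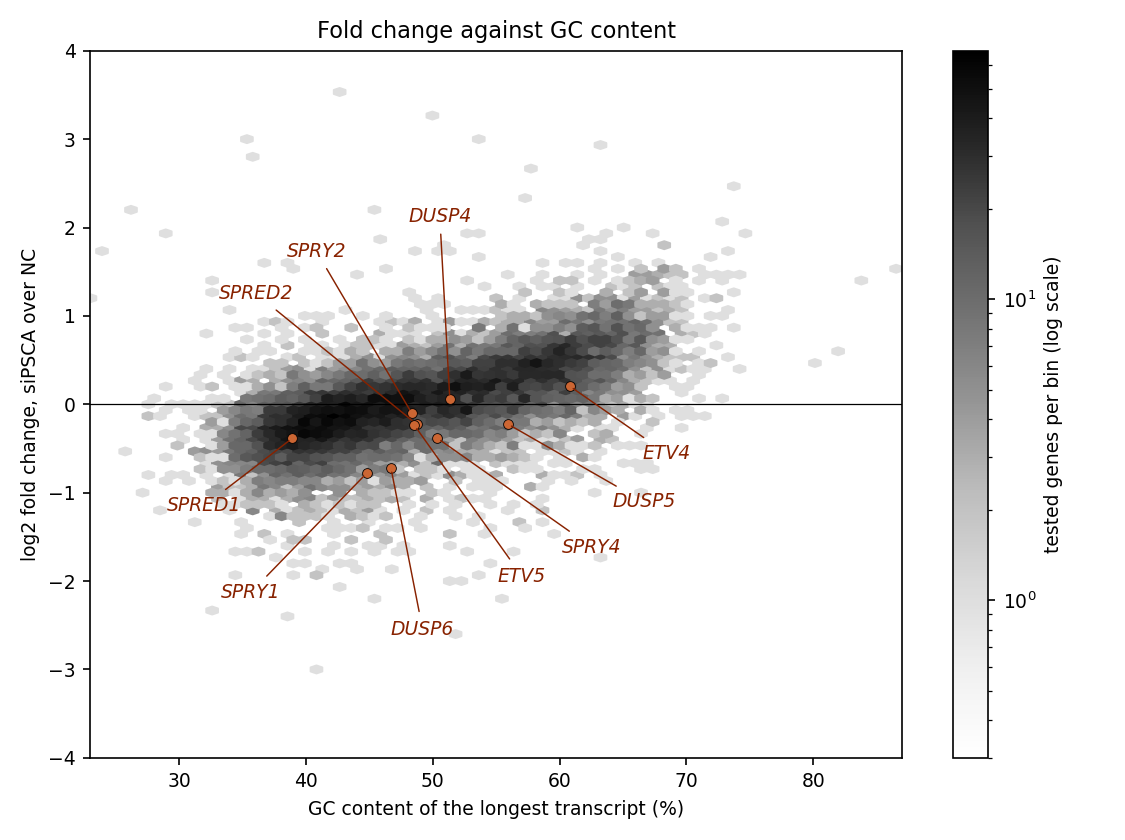
Log2 fold change of siPSCA over NC against GC content (%) of the longest transcript, with all tested genes as grey bins (darker bins hold more genes, log scale) and the 10 genes as orange points. The body of genes slopes upward, ETV4 at 60.8% GC has a log2 fold change of 0.20, and SPRED1 at 38.9% has -0.38.

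When the trend of each library on GC content and gene length was removed before the test, all 10 log2 fold changes were negative and 7 of 10 genes were called lower, against 19.8% of tested genes. None was called higher (0 of 10, against 19.8%). The median over the 10 was -0.29 and that over all tested genes 0.0076. Of these 7, 6 were also called before removal. ETV4 was called lower (log2 fold change -0.31, adjusted p = 0.00400) in place of SPRED1. The log2 fold change of DUSP5 grew from -0.22 to -0.53 (adjusted p = 0.000251). DUSP6 (-0.70, adjusted p = 9.8e-05), SPRY1 (-0.70, adjusted p = 0.0175) and SPRY4 (-0.45, adjusted p = 0.000429) kept their calls.

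The other genes kept their side of the threshold. SPRED2 was at -0.26 (adjusted p = 0.00603) and ETV5 likewise at -0.26 (adjusted p = 0.00484) on the log2 scale. DUSP4 had -0.027 (adjusted p = 0.666) and SPRY2 -0.15 (adjusted p = 0.0660). DUSP4 and SPRY2 were called under neither treatment of the data. Whether the GC trend arose in the cells or in library preparation cannot be told apart here, since it runs along the groups. A trend on GC content set NC 3 apart from NC 1 and NC 2 as well (Spearman's rho -0.561), and its origin was not tested.

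**Figure D3:**
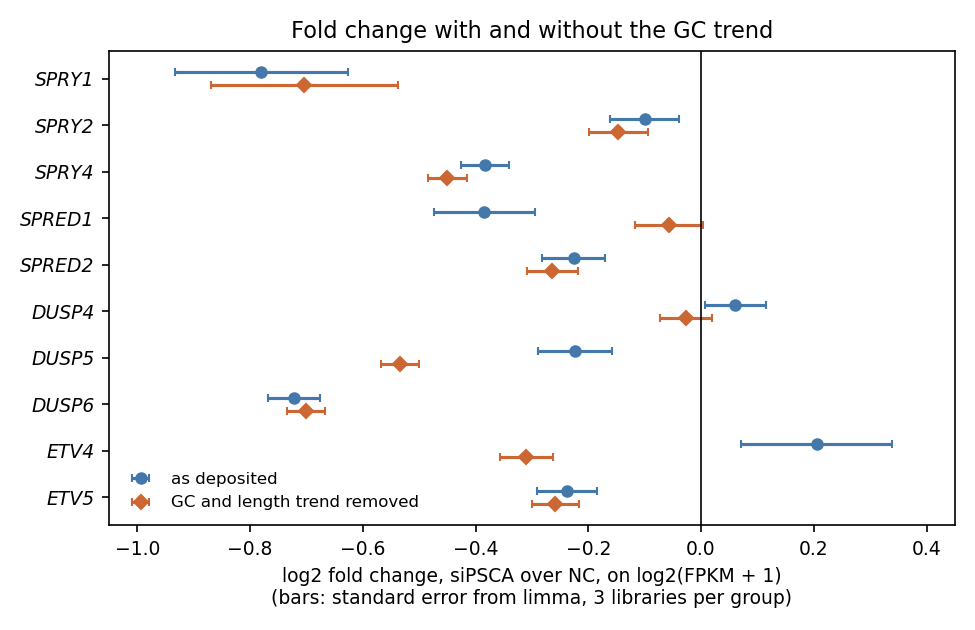
Log2 fold change of siPSCA over NC on the log2(FPKM + 1) scale for each of the 10 genes, from the FPKM as deposited (circles) and with the GC and length trend removed (diamonds), with bars for the standard error from limma (n = 3 libraries per group). ETV4 moves from 0.20 to -0.31 and SPRED1 from -0.38 to -0.057, whereas DUSP6 stays at -0.72 and -0.70.

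Log2 ratios of FPKM + 1 between genes of a family were compared within each library to ask whether the family's genes moved apart. For the 8 pairs, 6 had no overlap between the groups, each with an exact permutation p of 0.1 (2-sided, the smallest possible) and 0.133 after adjustment over the 8 pairs, so none can pass a threshold of 0.05 in this design. The log2 ratio of DUSP4 to DUSP6 was -1.52, -1.60 and -1.77 with NC siRNA and -0.86, -0.80 and -0.88 with siPSCA, a difference of 0.78. Every siPSCA library thus held more DUSP4 per DUSP6 than any NC library, and the difference was 0.67 with the GC trend removed.

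The log2 ratio of DUSP5 to DUSP6 was higher in siPSCA by 0.50, and by 0.17 with the trend removed. That of DUSP4 to DUSP5 was higher by 0.28, and by 0.51 with the trend removed. Both pairs kept their groups apart in either case. In the Sprouty family the log2 ratio of SPRY1 to SPRY2 was 0.72, 0.56 and 0.22 in NC and -0.46, -0.16 and 0.080 in siPSCA. SPRY1 was thus the more abundant of the pair in every NC library, and SPRY2 in 2 of the 3 siPSCA libraries. The difference was -0.68, -0.56 with the trend removed and -0.82 with a pseudocount of 0.1 FPKM. SPRY2 to SPRY4 differed by 0.28 and SPRY1 to SPRY4 by -0.40, the latter with overlap (exact permutation p = 0.2, 0.2 after adjustment). With a pseudocount of 0.1 FPKM, SPRY1 to SPRY4 differed by -0.55 (exact permutation p = 0.1, the smallest possible). Its overlap thus depended on the pseudocount.

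The other pairs depended on the GC trend. The log2 ratio of ETV4 to ETV5 was higher in siPSCA by 0.44 without overlap, but by -0.051 with the trend removed (exact permutation p = 0.5). SPRED1 to SPRED2 differed by -0.16 with overlap (exact permutation p = 0.2), and by 0.21 with the trend removed. With a pseudocount of 0.1 FPKM it differed by -0.19 (exact permutation p = 0.1, the smallest possible), so this overlap too depended on the pseudocount.

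**Figure D4:**
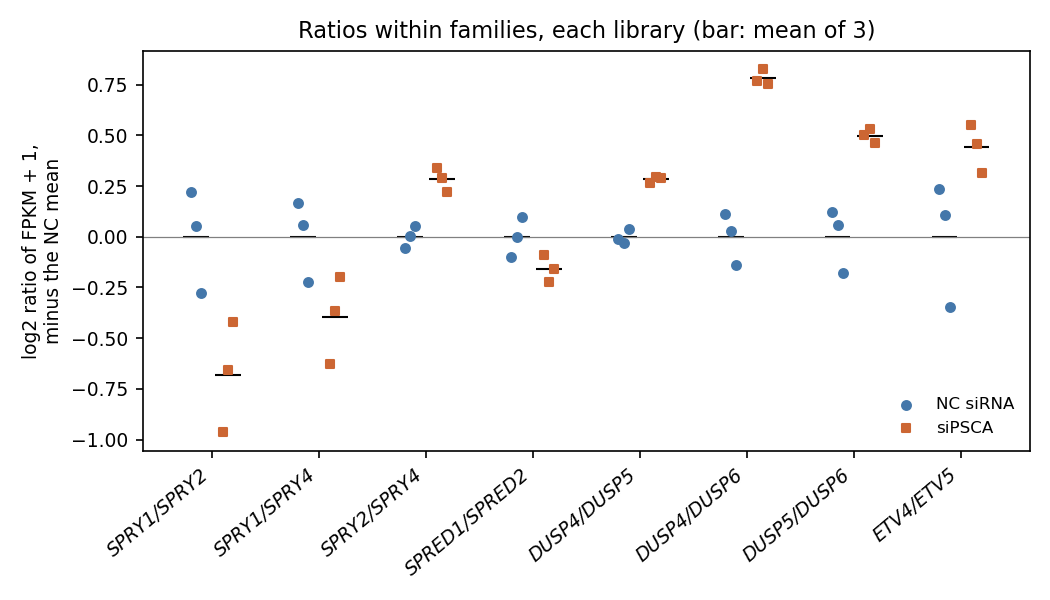
Log2 ratio of FPKM + 1 for 8 pairs of genes within families, minus the NC mean of the pair, in each NC library (circles) and siPSCA library (squares), with bars at the means. DUSP4/DUSP6 lies 0.78 higher in siPSCA and SPRY1/SPRY2 differs by -0.68, both without overlap, whereas SPRY1/SPRY4 and SPRED1/SPRED2 overlap.

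Reads on overlapping genes bear on some of these levels, since it is not given whether counting used the strand. The antisense gene AC024909.2 covers 1875 of the exonic bases of DUSP6 (40.5%). It had 62 to 104 reads a library, against 7281 to 12550 on DUSP6, so DUSP6 outnumbered it in every library. Its log2 fold change was 0.15 (adjusted p = 0.393 from limma) and -0.13 with the GC trend removed. DHX8 shares 68 exonic bases with ETV4 (1.89%) and DGKG 164 with ETV5 (2.83%). Neither was called, and with the GC trend removed both were called higher, at 0.19 and 0.44 on the log2 scale.

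At SPRY4, the antisense gene SPRY4-AS1 (chr5:142325293-142672001, plus strand) shares no exonic base with it. SPRY4-AS1 had 2.86, 3.36 and 2.72 FPKM in NC and 1.47, 1.43 and 0.970 in siPSCA. It fell without overlap, from 2.98 ± 0.336 to 1.29 ± 0.277 (SD, n = 3), with a change of -0.80 on the log2 scale (adjusted p = 0.00341 from limma). RF02039, a short RNA annotated on the plus strand inside the SPRY4 span, fell from 35.02 to 18.9 FPKM (adjusted p = 0.00631 from limma), and RF02038 beside it was 27.1 and 24.1 (adjusted p = 0.272). With the GC trend removed both were called lower, RF02039 at -0.74 and RF02038 at -0.50 on the log2 scale (adjusted p = 0.0135 and 0.00787). AC012370.1 in SPRED2 and ETV5-AS1 and RF00017 in ETV5 lay under the minimum, with 0 to 18 reads a library. Without the strand, reads on these short RNAs and on SPRY4 precursor RNA cannot be told apart.

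Other genes of the pathway were read from 4 lists. Their counts are to be read against the 26.6% of all tested genes called higher and 24.2% called lower, or 19.8% each with the GC trend removed. Of 13 close relatives and other inhibitors, 12 were tested, 4 were higher and 2 lower, with a median log2 fold change of 0.047. SPRY3 lay under the minimum. ERRFI1, an inhibitor of EGF receptors induced by their own signalling, fell from 288 to 148 FPKM (log2 fold change -0.95, adjusted p = 0.000125 from limma), and IL17RD (Sef), which restrains FGF signalling, fell by 0.30 on the log2 scale (adjusted p = 0.0143). DUSP2, a nuclear phosphatase, and DUSP9, a cytoplasmic one, rose by 0.87 and 0.60 (adjusted p = 0.0158 and 0.0329), but with the GC trend removed DUSP2 was at 0.22 and DUSP9 at -0.14, neither called. In that fit IL17RD was at -0.18 and still called, and 2 of the 12 were higher and 4 lower. ETV1, the relative of ETV4 and ETV5 in this list, had 25.1 FPKM in NC and 23.0 in siPSCA. It was not called (log2 fold change -0.12, adjusted p = 0.0712 from limma). With the GC trend removed ETV1 was called higher (0.25, adjusted p = 0.0109), unlike ETV4 and ETV5.

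Transcripts of ERK output outside the feedback genes went both ways. All 9 were tested, 4 were higher and 3 lower, with a median of 0.15. FOSL1, a FOS-family factor, rose from 18.3 to 33.5 FPKM (log2 fold change 0.85, adjusted p = 0.00167 from limma), and the cytokine gene LIF rose by 0.60 (adjusted p = 0.0210). EGR1, an immediate early factor, fell from 52.1 to 29.03 FPKM (log2 fold change -0.81, adjusted p = 0.00368), and PHLDA1 from 72.4 to 57.1 (adjusted p = 0.00267). With the GC trend removed 3 were higher and 4 lower, FOSL1 was at 0.39, EGR1 at -1.10 and PHLDA1 at -0.18, all still called, and LIF was at 0.25 and not called (adjusted p = 0.106). CCND1 and MYC, the other genes called higher, each rose by 0.44 (adjusted p = 0.000963 and 0.00327 from limma). Both kept their calls with the trend removed, at 0.35 and 0.20. IER3 and EPHA2 were called lower in that fit, at -0.55 and -0.35.

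Partners and controllers of the 10 gene products formed the third list. Of its 12 genes, 11 were tested (DET1 lay under the minimum), 2 were higher and 6 lower, with a median of -0.32. SOS1, which activates RAS, and RASA1, which inactivates it, fell by 0.65 and 0.57 on the log2 scale (adjusted p = 0.00332 and 0.00157 from limma). GRB2, the adaptor that carries SOS1, rose by 0.25 (adjusted p = 0.0128). CIC rose by 0.64 (9.34 to 14.8 FPKM, adjusted p = 0.0285), a value of -0.022 with the GC trend removed. In that fit SOS1 was at -0.28 and RASA1 at -0.44, both still called, and GRB2 was at 0.090 and not called (adjusted p = 0.129). Of the 11, 0 were higher and 6 lower.

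The culture medium supplied ligands for EGF and FGF receptors. Of 6 genes for these receptors and the adaptor FRS2, all tested, 0 were higher and 2 lower, with a median of -0.084 and the same counts with the GC trend removed. EGFR had 27.1, 25.9 and 27.8 FPKM in NC and 16.5, 16.9 and 17.1 in siPSCA. It fell without overlap (log2 fold change -0.65, adjusted p = 0.000613 from limma). FGFR2 fell by 0.26 on the log2 scale (adjusted p = 0.0461), a call that ended when any library but NC 1 was left out.

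Several of these calls were lost when 1 library was left out. Fewer of all tested genes were then called as well: 4627, 4734 and 5511 without siPSCA 1, siPSCA 2 and siPSCA 3, against 7001. Those of CIC and LIF were lost without any one of the siPSCA libraries, those of DUSP2 and GRB2 without siPSCA 1 or siPSCA 2, that of IL17RD without siPSCA 2, and that of DUSP9 without NC 2 or any siPSCA library. ERRFI1, FOSL1, EGR1, PHLDA1, SOS1, RASA1 and EGFR kept theirs whichever library was left out.

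**Figure D5:**
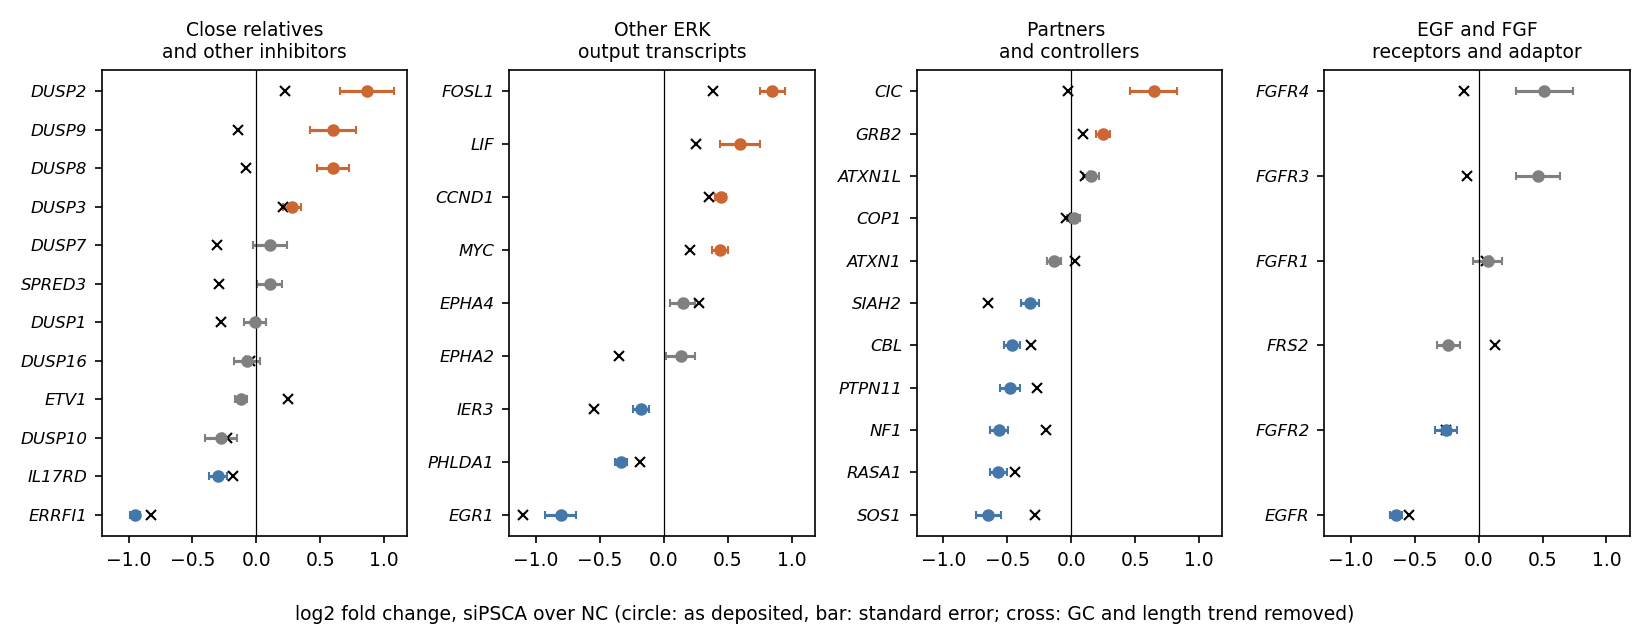
Log2 fold change of siPSCA over NC for the tested genes of 4 pathway lists, as deposited (circles with the standard error from limma, n = 3 libraries per group, orange for called higher, blue for called lower, grey for not called) and with the GC and length trend removed (crosses). ERRFI1 at -0.95 and EGFR at -0.65 are the lowest of their lists, and CIC moves from 0.64 to -0.022.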

How the data were processed

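RNA of 3 NC and 3 siPSCA libraries was sequenced after preparation with the NEBNext Ultra RNA kit. Expression was deposited by the authors as FPKM in a single table of 58735 genes that also gives gene lengths. The aligner, the counting program and the use of strand are not given in the sources used here. Gene starts and ends equal those of GENCODE release 29 on GRCh38. Undoing the length scaling gave whole reads (within 0.05 reads) for 100% of values, and so the depth. Reads carry no molecular identifiers, so reads per gene bound counting error only.

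Genes whose FPKM averaged 1 or more were tested with limma 3.58.1 (lmFit, eBayes with trend, 2-sided) in R 4.3.3 on log2(FPKM + 1), which understates changes of low genes, with group as the only term, and p-values were adjusted by Benjamini and Hochberg over 13796 genes. PSCA, SPRY3 and DET1 lay under the minimum. Exact permutation tests of the 3 against 3 libraries were run in Python 3.11.15 with scipy 1.17.1. For the GC-removed values, a loess trend (span 0.3) on GC content, then on log2 gene length, was subtracted in each library. The scripts were tested on simulated data.

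All 10 genes were named, with the genes overlapping them, and from each pathway list the 2 largest called rises and falls. ETV1, CCND1, MYC, IER3, EPHA2, FGFR3 and FGFR4 were named in addition, with their results known. The 10 genes and the lists were chosen with earlier results of these data known. The alternatives were a pseudocount of 0.1 FPKM, no minimum, a minimum of 5 FPKM, TPM, median-of-ratios scaling, limma-voom on the recovered reads, removal of the GC trend, a replicate block, and leaving out each library.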

Additional observations from a re-analysis of the deposited data

How the results depend on the processing

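SPRY4 and DUSP6 kept their direction and call under all alternatives run, and members called higher stayed at 0. With the GC and length trend removed, also without NC 3, and also with a replicate block, log2 fold changes were -0.027, -0.071 and -0.027 for DUSP4, -0.31, -0.35 and -0.31 for ETV4, -0.14, -0.15 and -0.14 for DUSP9, -0.022, -0.054 and -0.022 for CIC and -0.13, -0.23 and -0.13 for AC024909.2, all reversed, while SPRED1 was no longer called at -0.057, -0.010 and -0.057. The replicate block leaves the log2 fold change of this balanced design unchanged by construction, so its value repeats that of the trend removal. Removal of the trend also reversed the differences in log2 ratio of SPRED1 to SPRED2 (0.21) and ETV4 to ETV5 (-0.051). Without a minimum DUSP5 stayed at -0.22 and was not called (adjusted p = 0.0681, over more genes). The cause of the other changes was not tested. Removal of the trend left 5458 called genes and the replicate block 6725, against 7001.

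Whether the replicate numbers mark pairs of libraries could not be decided. Deviations of same-numbered libraries correlated at 0.0955, 0.0132 and 0.134, all weakly positive. NC 1 and NC 3 correlated best with the siPSCA library of the same number. NC 2 correlated best with siPSCA 1, at 0.0363 against 0.0132 with siPSCA 2. Correlations this small, from so few libraries, neither show nor exclude pairing. With the block and the trend removed together, 4621 genes were called and SPRY1 (-0.70) was not (adjusted p = 0.0513).

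Leaving out 1 library gave 4627 to 7425 called genes and 3 to 7 of the 10 genes called lower. Log2 fold changes ranged from -0.29 to -0.19 for DUSP5, -0.46 to -0.30 for SPRED1, -0.25 to -0.19 for SPRED2 and -0.27 to -0.22 for ETV5. SPRY2 had 187 to 211 reads a library, and its spread between libraries (coefficient of variation 3.14% in NC and 5.28% in siPSCA) was within counting error (7.01% and 7.23%). The spread of SPRY1 (17.9% and 19.4%) was above it (4.96% and 6.81%).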
